A study of Mus musculus with 2 samples.

Results

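The 6 genes described here were the endocytic receptors Cubn (cubilin) and Lrp2 (megalin), their adaptor Dab2, and the clotting genes Fgb, F2 and Pros1, 6 of the 18323 gene names that the E9.5 and E11.5 count tables had in common. They were listed by name after earlier results of these data had been seen, and the rule read the levels and shares of wells in each cell pool and whether the genes shared wells, so those values are a description and carry no test. The material was the aorta-gonad-mesonephros region (AGM, the part of the trunk where definitive blood stem cells arise) and the yolk sac of wild-type C57Bl/6 mouse embryos at E9.5 and E11.5. Live cells (7AAD-) were sorted by flow cytometry into a VE-cadherin positive gate, meant for endothelium, and a VE-cadherin negative gate, meant for the surrounding cells, and single Hoechst-stained cells were chosen by imaging in the nanowells of an ICELL8 chip. This gave 8 sorted pools, 1 for each tissue and gate at each stage. Each stage also had control wells without a sorted cell, of which some held RNA of E14FF mouse embryonic stem cells and others were negative controls. One chip carried E9.5 and the other E11.5, so stage and chip cannot be told apart. Each pool was a single sample, and no difference between pools has a replicate check.

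Cubilin and megalin are very large receptors that work together at the apical surface of absorptive epithelia, such as the kidney proximal tubule and the visceral endoderm of the yolk sac, where they take up vitamin carriers, apolipoproteins and other proteins. Cubilin has no membrane-spanning part of its own and is anchored by amnionless (Amn), while Dab2 binds the cytoplasmic tail of megalin and links it to clathrin. The yolk sac endoderm also secretes plasma proteins before the liver takes over. Fgb encodes the beta chain of fibrinogen, F2 encodes prothrombin, the precursor of the protease that cleaves fibrinogen, and Pros1 encodes protein S, a cofactor of the anticoagulant activated protein C and a ligand of the receptor kinases Tyro3 and Mertk.

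The start regions of Cubn, Lrp2, Fgb and F2 are shown because these 4 genes were found in the same yolk sac pools. Each window runs from 250 bases before to 50 bases after the annotated start, is written 5′ to 3′ on the strand of the gene, and was taken from RefSeq on GRCm38.p6. The windows are chr2:13491827-13492126 for Cubn, chr2:69585980-69586279 for Lrp2, chr3:83049814-83050113 for Fgb and chr2:91636408-91636707 for F2, all on the minus strand. Capitals mark matches to the letters GTTAAT, the short form of the site bound by the hepatic and endodermal factor HNF1, searched on both strands (a match on the other strand reads ATTAAC).
Cubn: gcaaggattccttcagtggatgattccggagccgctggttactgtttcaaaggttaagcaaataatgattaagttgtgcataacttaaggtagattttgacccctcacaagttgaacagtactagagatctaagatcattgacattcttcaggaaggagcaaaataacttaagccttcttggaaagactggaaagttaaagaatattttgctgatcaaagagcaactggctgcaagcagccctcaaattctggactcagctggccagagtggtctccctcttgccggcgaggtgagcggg
Lrp2: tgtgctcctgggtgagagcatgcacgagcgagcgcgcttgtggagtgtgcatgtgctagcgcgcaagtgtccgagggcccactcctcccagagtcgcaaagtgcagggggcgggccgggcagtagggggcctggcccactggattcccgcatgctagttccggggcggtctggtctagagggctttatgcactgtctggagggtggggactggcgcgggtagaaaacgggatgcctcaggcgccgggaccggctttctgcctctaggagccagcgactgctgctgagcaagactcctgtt
Fgb: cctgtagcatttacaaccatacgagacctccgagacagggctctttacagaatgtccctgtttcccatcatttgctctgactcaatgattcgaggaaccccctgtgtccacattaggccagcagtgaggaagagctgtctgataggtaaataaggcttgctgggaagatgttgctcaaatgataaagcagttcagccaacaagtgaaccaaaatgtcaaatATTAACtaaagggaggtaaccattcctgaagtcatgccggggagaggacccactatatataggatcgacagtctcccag
F2: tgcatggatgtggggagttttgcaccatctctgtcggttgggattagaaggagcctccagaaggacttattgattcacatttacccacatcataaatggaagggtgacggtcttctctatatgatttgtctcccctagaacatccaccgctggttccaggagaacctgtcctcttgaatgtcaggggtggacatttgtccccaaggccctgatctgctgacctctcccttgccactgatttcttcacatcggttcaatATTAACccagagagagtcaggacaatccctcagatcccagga

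These HNF1 letters lay 29 bases before the start of Fgb and at base 9 after the start of F2. They also lay 43 bases before the start of Fga, which encodes the alpha chain of fibrinogen, and 65 bases before the second of the annotated starts of Dab2. The windows of Cubn, Lrp2 and Pros1, and that of the fibrinogen gamma chain gene Fgg, did not hold them. The same letters occurred in 7.10% of 32851 windows of this length, so a match describes the letters only. The windows of Lrp2 and Pros1 were rich in G and C (65.0% and 66.7%, with 20 and 21 CpG), above the median of 52.7% and 7 CpG over all windows. Those of Cubn, Fgb and F2 were poorer, at 44.3%, 46.3% and 49.0%, with 5, 5 and 4 CpG.

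In the gene annotation of the same assembly (GENCODE vM21), Cubn spans chr2:13276338-13491813, Lrp2 chr2:69424340-69586065 and F2 chr2:91625320-91636414, all on the minus strand of chromosome 2. Fgb spans chr3:83040141-83049863 on the minus strand, Dab2 chr15:6299788-6440712 and Pros1 chr16:62854307-62929346 on the plus strand. The 3′ part of Cubn overlaps the transcript Gm13270 on the other strand, with 211 bases in common, and Dab2 overlaps the antisense Gm16311 and the pseudogene Gm18888. Whether the counting used strand is not given in the sources used here, so reads from these overlaps cannot be assigned with certainty.

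Wells with 500 or more detected genes were kept, which left 2644 of 2766 sorted wells. The pools held between 287 and 379 wells and between 850258 and 3862642 counts, and the median well held 12452 counts in the E9.5 yolk sac negative pool but between 2532 and 5832 counts in the other 7. The number of barcodes that occurred in both stage tables was 473. The sort had excluded doublets, and a doublet caller (Scrublet) marked 9 of 1361 wells (0.661%) at E11.5 and 1 of 1283 (0.0779%) at E9.5, where it is taken not to have worked. Levels below are counts divided by the pool total and scaled to 1000000 (CPM) with 95% exact Poisson intervals, and shares are percentages of wells with at least 1 count. These intervals cover counting error only.

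Cubn was low at E9.5 and concentrated in the yolk sac at E11.5. At E9.5 it had 3 counts in the AGM positive pool (1.58 CPM), 1 in the AGM negative pool (0.588 CPM), 7 in the yolk sac positive pool (5.06 CPM) and 38 in the yolk sac negative pool (9.84 CPM). At E11.5 the level was 15.3 CPM in the AGM positive pool (13 counts), 7.32 CPM in the AGM negative pool (8 counts), 188 CPM in the yolk sac positive pool (231 counts, interval 165 to 214) and 71.1 CPM in the yolk sac negative pool (116 counts, 58.8 to 85.3). Both E11.5 yolk sac pools therefore stood above all other pools, and their intervals did not overlap each other. A Cubn count was found in 29.1% of yolk sac positive and 14.5% of yolk sac negative wells at E11.5, beside 4.53% and 2.37% of the AGM wells of that chip.

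Lrp2 had the same high pools at E11.5, but its order at E9.5 was different. At E9.5 its levels were 1.58 CPM in positive (3 counts) and 13.5 CPM in negative cells (23 counts) of the AGM, and 1.45 CPM in positive (2 counts) and 5.18 CPM in negative cells (20 counts) of the yolk sac. At E11.5 they were 7.06 CPM (6 counts) and 10.1 CPM (11 counts) in the AGM pools, and 102 CPM (125 counts) in the positive and 46.0 CPM (75 counts) in the negative yolk sac pool. The AGM negative pool was thus the highest of the 4 pools at E9.5. Markers of nephric and coelomic epithelium, a tissue in which megalin is known to be made, summed to 67.7 CPM in that pool. In the other E9.5 pools they summed to between 5.78 and 16.6 CPM. Neural tube markers (325 CPM) and epithelium markers (191 CPM) were also highest in AGM negative cells among the E9.5 pools. At E11.5 the nephric markers reached 111 CPM in AGM negative cells, where Lrp2 was at 10.1 CPM. The part of any of these cell types in the Lrp2 level was not tested. Shares of wells with Lrp2 at E11.5 were 21.6% and 11.3% in the yolk sac positive and negative pools, and 3.25% in AGM negative cells.

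The partner of cubilin, Amn, was detected in the same pools. It had 16 counts in yolk sac positive (13 CPM) and 11 in yolk sac negative cells (6.75 CPM) at E11.5, 4 and 1 counts in the yolk sac pools at E9.5, and none in any of the 4 AGM pools. Lrpap1, the chaperone that keeps megalin from binding its ligands during synthesis, was present in all pools, between 36.3 CPM in E9.5 AGM positive and 119 CPM in E11.5 yolk sac positive cells. Its range over the pools was thus far narrower than those of Cubn and Lrp2.

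Dab2 was detected in every pool and was higher in the positive gate, to an extent that differed between the tissues. At E9.5 it was at 73.6 CPM in positive and 47.1 CPM in negative cells of the AGM, and at 272 CPM in positive and 39.1 CPM in negative cells of the yolk sac (140, 80, 376 and 151 counts). At E11.5 it was at 333 CPM, 166 CPM, 583 CPM and 118 CPM in the same order (283, 182, 715 and 193 counts). The positive pool was above the negative pool in each tissue and at each stage, and yolk sac positive cells were the highest at both stages. Dab2 was counted in 62.5% of these wells at E9.5 and 60.8% at E11.5. The adaptor is known from endothelium and macrophages as well as endoderm, and it did not share the near absence of its receptors from AGM cells.

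Fgb resembled Cubn in its order of levels. At E9.5 it had 1 count in AGM positive cells (0.526 CPM), none in AGM negative cells (where 3 counts would give 1.77 CPM), 2 in yolk sac positive cells (1.45 CPM) and 24 in yolk sac negative cells (6.21 CPM). At E11.5 it had 7 counts (8.23 CPM) and 4 counts (3.66 CPM) in the AGM pools, 228 counts (186 CPM) in yolk sac positive and 128 counts (78.5 CPM) in yolk sac negative cells. The E11.5 yolk sac pools were again highest, with Fgb in 30.0% and 19.0% of wells beside 2.09% and 1.18% of AGM wells. The genes of the other fibrinogen chains had the same order at E11.5. Fga was at 72.5 CPM and 41.1 CPM in yolk sac positive and negative cells and at 10.6 CPM and 1.83 CPM in the AGM pools. Fgg was at 69.3 CPM and 28.2 CPM in the yolk sac and at 3.53 CPM and 2.74 CPM in the AGM. All 3 chains were nearly absent at E9.5 outside yolk sac negative cells, where Fga had 8 and Fgg 12 counts.

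F2 was the rarest member and never reached the 20 counts asked of a comparison. It had 19 counts in yolk sac positive (15.5 CPM) and 13 in yolk sac negative cells (7.97 CPM) at E11.5, 1 in each E11.5 AGM pool (1.18 CPM and 0.914 CPM), and at E9.5 none in positive and 1 in negative cells of the AGM, and 1 in positive and 3 in negative cells of the yolk sac. The pools with most F2 counts were therefore those of Cubn and Fgb. Antithrombin, the main inhibitor of thrombin, is encoded by Serpinc1, which had 13 and 6 counts in the same 2 pools and at most 1 in the others. Proc, for protein C, reached 11 counts in E11.5 yolk sac positive cells and at most 5 elsewhere. F10, for the factor that activates prothrombin, had another order: it was highest in E9.5 yolk sac negative cells at 19.4 CPM (75 counts) and yolk sac positive cells at 15.9 CPM (22 counts), against 6.75 CPM and 7.33 CPM there at E11.5.

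Pros1 was counted widely in all sorted pools of the E11.5 chip. At E9.5 it was at 25.8 CPM in positive and 10.0 CPM in negative cells of the AGM, and at 49.2 CPM in positive and 16.1 CPM in negative cells of the yolk sac (49, 17, 68 and 62 counts). At E11.5 it was at 519 CPM, 276 CPM, 393 CPM and 351 CPM in that order (441, 302, 482 and 572 counts). All 4 pools of the E11.5 chip were thus above all 4 pools of the E9.5 chip, and AGM positive cells were the highest at E11.5. Pros1 was counted in between 55.6% and 73.2% of E11.5 wells and between 4.52% and 17.4% of E9.5 wells.

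The control wells gave a background that differed between the members. Wells with stem cell RNA, which hold no embryonic cell, had 4 Pros1 counts among 310576 (12.9 CPM) on the E9.5 chip and 1176 among 149080 (7888 CPM) on the E11.5 chip, where all 47 wells had a count and 1 well had 86. The log2 ratio of E11.5 over E9.5 was 9.26 (interval 7.90 to 11.14), the highest of 2126 genes measured in these controls, whose median was -0.40. The stage difference of Pros1 in the sorted pools therefore went with a difference between the chips in wells without embryonic cells. Its part in the sorted pools was not tested. Pros1 was not the only gene apart in these wells. Gapdh had 896 counts at E9.5 (2885 CPM) and 10 at E11.5 (67.1 CPM), a log2 ratio of -5.43 and rank 2124 of the 2126. Afp had 0 and 38 counts and was at rank 6. The control wells thus differed between the chips in other genes too, which limits every comparison of the stages. The other members had few counts in these wells: 9 and 6 of Lrp2, 8 and 3 of Dab2, 2 and 2 of Cubn, 1 and 1 of F2, and none of Fgb (E9.5 first). For Lrp2 this was 29.0 CPM at E9.5, above all 4 sorted pools of that chip, and 40.2 CPM at E11.5, near the 46.0 CPM of yolk sac negative cells. Their shares of wells with Lrp2 were 19.6% and 12.8%.

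The negative control wells held few counts, with a median of 124.5 counts per well at E9.5 and 329 at E11.5, so CPM values are coarse there. At E11.5 Pros1 and Dab2 each had 7 counts in 7 of 47 wells (405 CPM, interval 163 to 834, 14.9% of wells), Fgb had 2 counts (116 CPM, 4.26% of wells), Lrp2 had 1 and Cubn and F2 had none. For Cubn 3 counts would give 174 CPM and 6.38% of these wells, so a background in CPM near the yolk sac levels was not detectable at this depth. In CPM, the negative wells of the E11.5 chip stood within the range of the sorted E11.5 pools for Pros1, Dab2 and Fgb. In counts they held few, and the share of wells with Pros1 was 14.9% there and 55.6% or more in sorted wells, whose median depth was 2532 counts or more. At E9.5 the negative wells had 1 Dab2 count and none of the other 5.

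**Figure D1:**
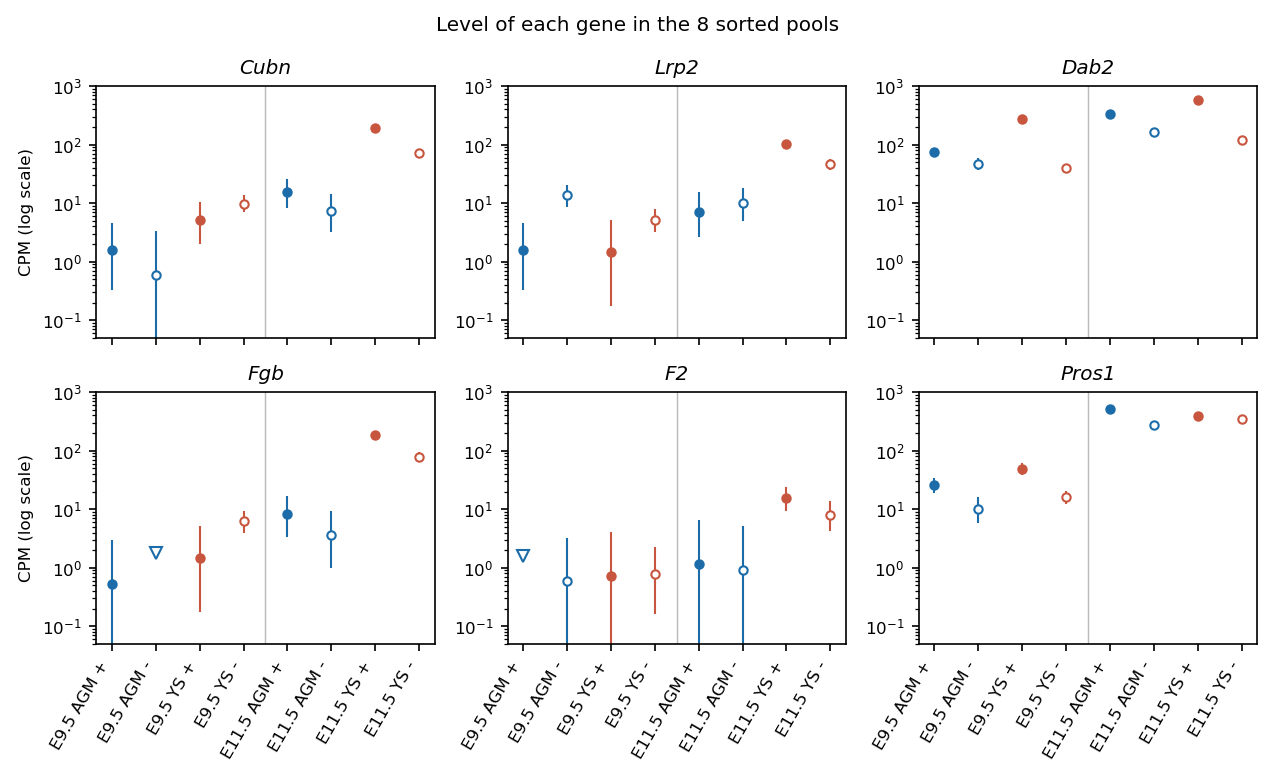
Level of each of the 6 genes in the 8 sorted pools, in CPM on a log axis, with points for the pool value (blue AGM, red yolk sac or YS; filled positive, open negative gate), bars for the 95% Poisson interval and triangles at 3 counts where there was none. Cubn, Lrp2, Fgb and F2 are highest in the E11.5 yolk sac pools, Dab2 is highest in yolk sac positive cells, and Pros1 is high in all E11.5 pools.

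Yolk sac and AGM were compared within each stage and gate. A gene was measurable with 20 or more counts in the higher pool, and was called apart at 2-fold or more. Because these levels were read when the genes were listed, the counts of members are not evidence for them and are printed only beside the share of all measurable genes. Among negative cells, Cubn and Fgb were called higher in the yolk sac at E9.5 (2 of 5 measurable members; 4.59% of all genes), and Cubn, Lrp2 and Fgb at E11.5 (3 of 5; 5.87%). Among positive cells, Dab2 was called higher in the yolk sac at E9.5 (1 of 2; 8.53%), and Cubn, Lrp2 and Fgb at E11.5 (3 of 5; 4.90%). Lrp2 was called lower in yolk sac negative cells at E9.5 (1 of 5; 54.8%), and no member was so called at E11.5 (0 of 5; 45.4%) or among positive cells (0 of 2 at E9.5; 3.53%, and 0 of 5 at E11.5; 9.92%). The median of all measurable genes in the negative comparison lay at -1.14 at E9.5 and -0.90 at E11.5 on the log2 scale. Scaling by TMM factors added 1.13 at E9.5 and 0.85 at E11.5 to every ratio between negative pools, and the shares of all genes called then were 16.7% higher and 22.4% lower for the earlier stage, and 13.6% and 14.0% for the later.

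Cubn had the widest tissue difference among negative cells at E9.5, with a log2 ratio of 4.06, but this rested on 38 counts against 1 and its interval ran from 1.50 to 9.40. At E11.5 the ratio of Cubn was 3.28 (2.26 to 4.53) among negative and 3.62 (2.82 to 4.55) among positive cells. For Lrp2 the E11.5 ratios were 2.19 (1.27 to 3.26) and 3.85 (2.69 to 5.32). For Fgb they were 4.42 (3.03 to 6.32) and 4.50 (3.43 to 5.83). These receptor and fibrinogen genes thus stood 4-fold or more apart in both gates at E11.5. At E9.5 Fgb was at least 3.52-fold higher in yolk sac negative than in AGM negative cells, taking 3 counts as the limit of the pool with none. F2, under the count minimum, had a log2 ratio of 3.12 (0.39 to 8.53) among E11.5 negative cells, from 13 counts against 1.

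Lrp2 went the other way among negative cells at E9.5, with a log2 ratio of -1.39 (-2.33 to -0.46). That call depended on the scaling: it was -0.78 with haemoglobin, mitochondrial genes and Gm42418 left out of the totals, -0.25 with edgeR's TMM factors and -0.16 with DESeq2's size factors. Dab2 was near equal in the negative pools, with a log2 ratio of -0.27 (-0.67 to 0.14) at the earlier stage and -0.49 (-0.79 to -0.19) at the later one, and its sign turned under each of these scalings. The E9.5 value became 0.34, 0.87 and 0.96, and the E11.5 value 0.12, 0.35 and 0.37. Among positive cells Dab2 was higher in the yolk sac, at 1.89 (1.60 to 2.18) at E9.5 and 0.81 at E11.5, the latter passing 2-fold at 1.03 to 1.07 under the other scalings. Pros1 lay close to equal between tissues at E11.5, at 0.35 (0.14 to 0.55) among negative and -0.40 (-0.59 to -0.21) among positive cells. The negative-cell value of Pros1 moved to between 0.96 and 1.20 under the other scalings, and at E9.5 it moved from 0.68 to between 1.29 and 1.91.

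Positive and negative cells were compared within each tissue and stage, and members were called in both directions at E9.5 only. In the E9.5 yolk sac, Dab2 and Pros1 were called higher in positive cells (2 of 5 measurable members; 38.8% of all genes) and Lrp2 and Fgb lower (2 of 5; 2.67%). In the E11.5 yolk sac, Cubn, Lrp2, Dab2 and Fgb were called higher in positive cells (4 of 5; 9.20%) and none lower (14.9%). In the AGM, Pros1 was called higher (1 of 3; 7.61%) and Lrp2 lower (1 of 3; 21.2%) in positive cells at E9.5, and no member was called at E11.5 (0 of 2; 6.45% higher and 42.4% lower), where Dab2 lay just short of 2-fold. With the TMM factors the shares of all genes called higher and lower in positive cells were 18.1% and 10.5% in the E9.5 yolk sac and 10.5% and 20.6% in the E11.5 AGM.

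Fgb turned between the stages. Its log2 ratio of positive over negative yolk sac cells was -2.10 (-5.23 to -0.09) at E9.5, from 2 counts against 24, and 1.24 (0.92 to 1.57) at E11.5. Cubn had -0.96 (-2.37 to 0.22) and 1.40 (1.08 to 1.74), and Lrp2 -1.84 (-4.98 to 0.20) and 1.15 (0.72 to 1.58). All 3 were thus about equal or lower in positive cells at E9.5 and higher at E11.5, although the E9.5 counts of the positive pool were between 2 and 7. With the other scalings the E9.5 ratio of Cubn lay between -1.40 and -1.97, past 2-fold. Dab2 was higher in positive cells at both stages, at 2.80 (2.52 to 3.08) and 2.30. Pros1 was higher at E9.5, at 1.62, a value that fell below 2-fold with TMM (0.78) and with size factors (0.60), and was near equal at E11.5, at 0.16 (-0.01 to 0.34). In the E9.5 AGM, Dab2 had 0.64, which passed 2-fold with TMM (1.09) and with size factors (1.02). In the E11.5 AGM, Dab2 had 1.00 and Pros1 0.91, which became 1.57 to 1.70 and 1.48 to 1.61 under the other scalings.

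The stage comparison sets one chip against the other. All 5 measurable members were called higher at E11.5 in yolk sac positive cells (5 of 5; 5.01% of all genes) and in yolk sac negative cells (5 of 5; 29.4%), and none lower (38.6% and 16.1%). In the AGM, Dab2 and Pros1 were called higher in positive (2 of 2; 7.55%) and in negative cells (2 of 3; 14.8%), and none lower (25.5% and 11.6%). With the TMM factors the shares of all genes called higher and lower were 8.10% and 20.2% in yolk sac positive, and 23.0% and 25.1% in yolk sac negative cells. In yolk sac positive cells the log2 ratio of E11.5 over E9.5 was 5.22 for Cubn, 6.14 for Lrp2, 7.01 for Fgb, 1.10 for Dab2 and 3.0 for Pros1. In yolk sac negative cells these were 2.85, 3.15, 3.66, 1.60 and 4.45. Fgb and the receptors thus had their widest stage difference in positive cells, whereas the Pros1 ratio was wider in negative cells. In the AGM Pros1 had 4.33 in positive and 4.79 in negative cells, Dab2 had 2.18 and 1.82, and Lrp2 had -0.43 in negative cells. Dab2 in yolk sac positive cells fell below 2-fold, to 0.91, when each well had the same weight.

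**Figure D2:**
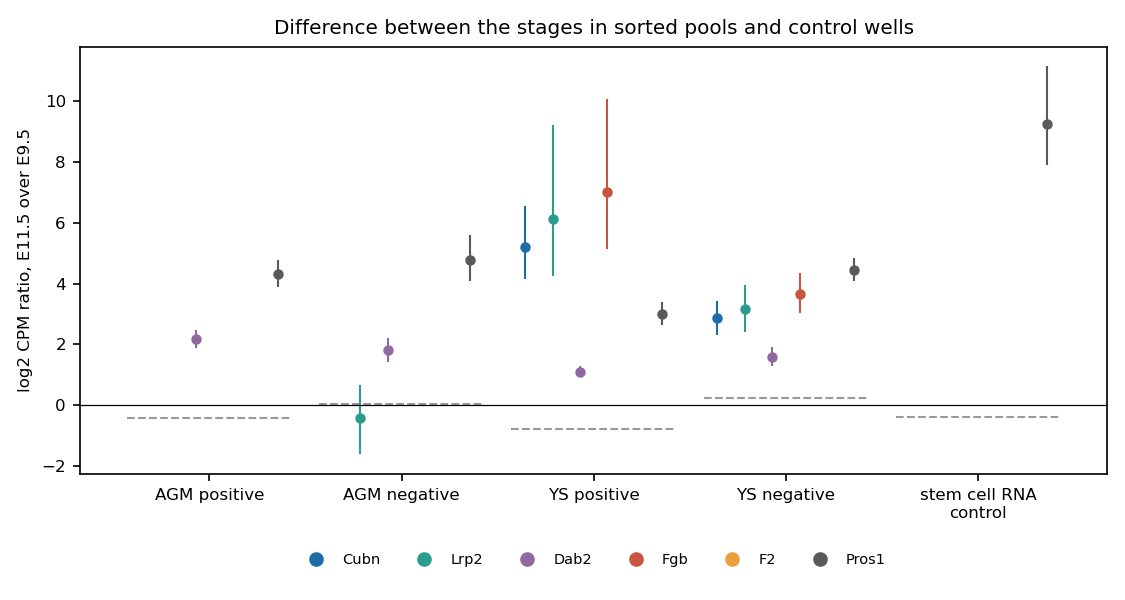
Log2 ratio of E11.5 over E9.5 for each measurable member in the 4 kinds of sorted cell, with 95% intervals, and Pros1 in the control wells with stem cell RNA; the dashed marks give the median of all measurable genes. The Pros1 ratio of 9.26 in the control wells lies above its ratios in sorted cells, which run from 3.0 to 4.79.

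The counts of the members were spread over the E11.5 yolk sac wells to differing extents. In the negative pool of 379 wells, 50% of the Cubn counts came from 6 wells, of the Fgb counts from 14 wells, of the Lrp2 counts from 10 wells and of the F2 counts from 2 wells. The Pros1 counts needed 70 wells and the Dab2 counts 32 to reach the same share. In the positive pool of 357 wells the numbers were 13 for Cubn, 17 for Fgb, 19 for Lrp2, 7 for F2, 30 for Dab2 and 60 for Pros1. These numbers depend on how many counts a gene has, and no comparison at equal counts was made. In the positive pool F2 had 19 counts in 16 wells, with at most 4 in a well. The highest count of a single well was 19 for Cubn and 23 for Fgb in the negative pool, and 27 and 32 in the positive pool. In the E9.5 yolk sac negative pool, by contrast, 12 wells held 50% of the 38 Cubn counts and no well had over 3.

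**Figure D3:**
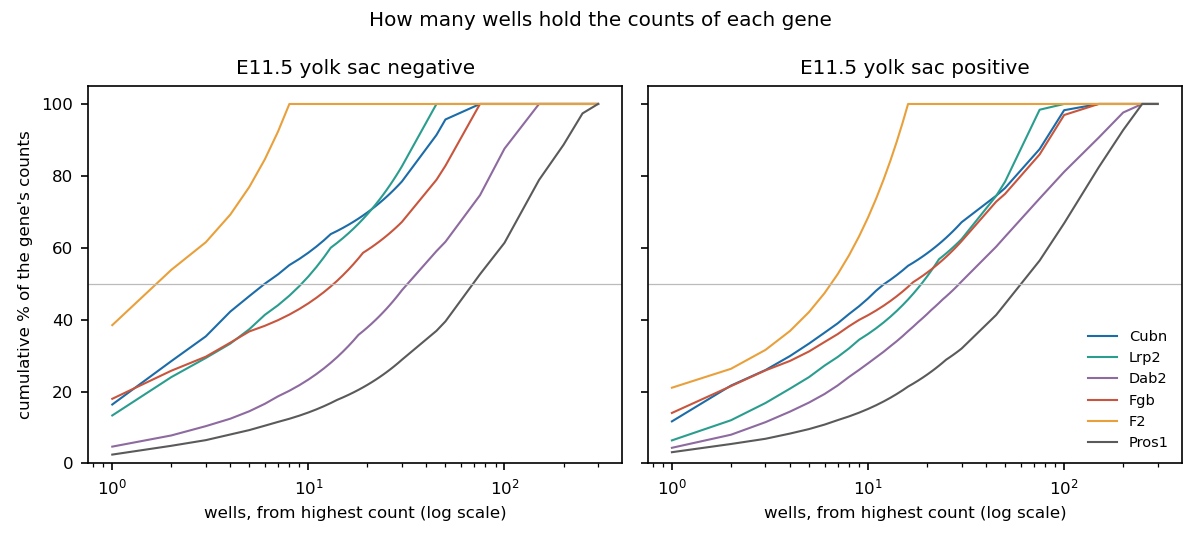
Cumulative percentage of a gene's counts (vertical axis) against the number of wells, ordered from the highest count down (horizontal axis), in the 2 E11.5 yolk sac pools. The Cubn line passes 50% at 6 wells in the negative and 13 wells in the positive pool, and the Pros1 line at 70 and 60.

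Some of these wells were the same wells. Of the 4 genes Cubn, Lrp2, Fgb and F2, at least 2 were counted in 77 of 357 E11.5 yolk sac positive wells (21.6%), with all 4 in 6 wells and 3 in 16. In the negative pool this held for 32 of 379 wells (8.44%), with all 4 in 4 wells and 3 in another 4. The E11.5 AGM had 1 such well of 287 among positive and none of 338 among negative cells, the E9.5 yolk sac negative pool had 2 of 305, and the other 3 E9.5 pools had none. Control wells had 1 such well of 47 (2.13%) among those with stem cell RNA at E11.5 and none in the other 3 sets. The number of such wells expected from the shares of the single genes was not computed. Genes counted in many wells meet in some wells without any link, and pools where these genes are rare have few such wells for that reason alone. These numbers therefore do not show by themselves that the genes go together. Wells with 2 or more were somewhat deeper than wells with none, with medians of 3380 against 2861 counts in the positive and 4632 against 3748 in the negative pool.

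In the negative pool the well with most counts of the 4 genes had 8 of Cubn, 8 of Lrp2, 23 of Fgb and 1 of F2, with 9 of 16 listed visceral endoderm markers among its 6464 counts. The next had 19 of Cubn, 1 of Lrp2, 10 of Fgb and 5 of F2, with 11 markers. In the positive pool the highest well had 27 of Cubn, 7 of Lrp2, 32 of Fgb, 4 of F2 and 10 of Dab2, with 12 markers among 12108 counts. The sharing was not complete: another positive well had 23 Cubn counts with no Lrp2 or Fgb count, 4 endoderm markers, 5 endothelial and 5 macrophage markers. That well had 10507 counts, against a median of 3008 in its pool. None of these wells was marked as a doublet. The caller marked only 9 of 1361 wells of this chip, however, so an unmarked well can still be a doublet.

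For a comparison at equal depth, each well was thinned to 2000 counts, and shares were averaged over 20 random draws, whose range shows the thinning only and not the error of having few wells. In yolk sac negative cells a Cubn count was found in 21.6% of wells with Fgb (15.4% to 27.7% over the draws) and in 7.35% of wells without it (5.30% to 9.88%). In yolk sac positive cells this was 31.1% (23.7% to 36.1%) against 17.7% (15.4% to 20.4%). Cubn was thus more frequent in wells with Fgb than in wells without it in each E11.5 yolk sac pool, although most wells with either gene had no count of the other. Before thinning, the shares were 26.4% (19 of 72 wells) against 11.7% (36 of 307), and 41.1% (44 of 107) against 24.0% (60 of 250). Lrp2 was found in 17.4% of negative wells with Cubn and 5.42% of those without, and in 24.5% and 12.7% of positive wells. F2, counted in 16 positive wells before thinning, shared 11 of them with Fgb (68.8%) and 11 with Lrp2, against 28.2% and 19.4% in the wells without F2.

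Of the fibrinogen partners, Fga was also more frequent in wells with Fgb, and the difference of Fgg was smaller. The shares of Pros1 and Dab2 with and without Fgb were closer to each other. Fga was found in 14.6% of negative wells with Fgb and 5.28% without, and in 21.4% and 7.54% of positive wells. The values for Fgg were 5.84% and 3.09%, and 13.7% and 8.47%, and their ranges over the draws overlapped in both pools. Apob, an apolipoprotein gene of liver and yolk sac endoderm, was found in 33.7% and 18.9% of negative and 49.5% and 40.2% of positive wells. Pros1 was in 43.3% of negative wells with Fgb and 49.9% without, and in 51.2% and 50.9% of positive wells. Dab2 was in 22.6% and 19.6%, and 53.3% and 48.8%. Among positive cells, wells with Cubn had the endothelial gene Cdh5, which encodes VE-cadherin, in 26.4% and wells without Cubn in 34.4%. Mrc1, the mannose receptor of macrophages and some endothelium, was in 40.0% and 52.9%. With Lrp2 and without it, Cdh5 was in 32.7% and 32.7% and Mrc1 in 37.8% and 52.5%. With Fgb and without it, the shares were 33.0% and 32.6% for Cdh5, and 50.9% and 50.1% for Mrc1.

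**Figure D4:**
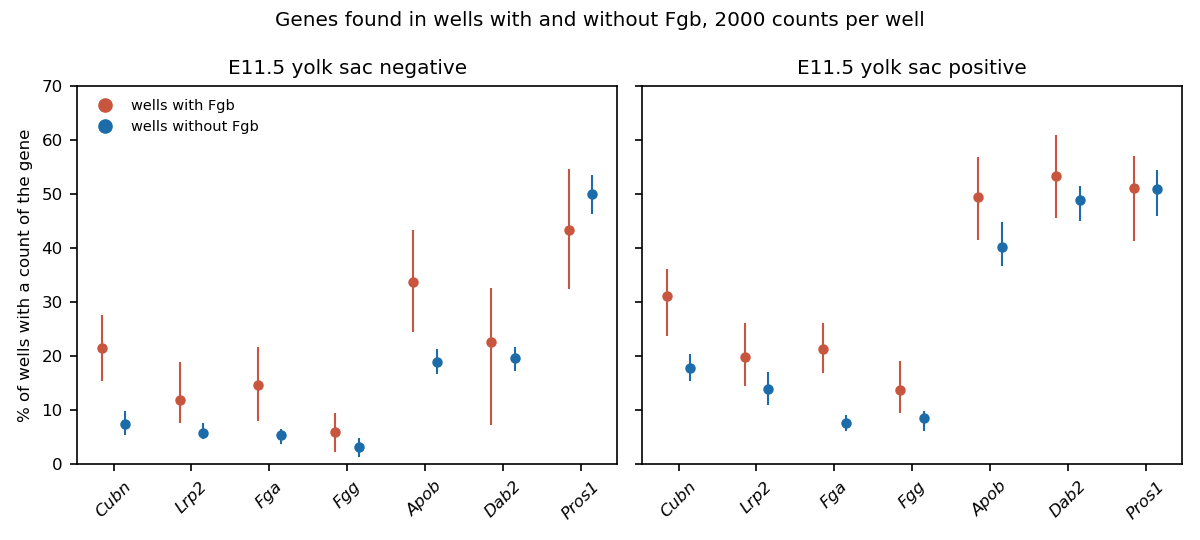
Percentage of E11.5 yolk sac wells with a count of each gene, among wells with (red) and without (blue) a count of Fgb, as means of 20 draws of 2000 counts per well, with bars for the lowest and highest draw. For Fgb and Cubn the shares are 21.6% and 7.35% in the negative and 31.1% and 17.7% in the positive pool, while for Fgb and Pros1 they are 43.3% and 49.9%, and 51.2% and 50.9%.

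Visceral endoderm markers were checked in all pools, with the 6 genes themselves left out of the marker list. Of 16 listed markers, 14 were in both tables, and together they reached 8121 CPM in yolk sac positive and 3242 CPM in yolk sac negative cells at E11.5. In the other pools they summed to between 8.41 and 396 CPM. Afp led the list and was spread far wider than the members: it was found in 100% of yolk sac positive and 96.3% of yolk sac negative wells at E11.5, but also in 47.7% and 37.9% of AGM wells and in 51.1% of the control wells with stem cell RNA. In negative control wells the markers summed to 3355 CPM at E11.5, and 31 of their 17289 counts were of Afp. A single Afp count therefore did not mark an endoderm cell, and wells were sorted by the number of markers instead. Foxa2, an early endoderm factor, was at 0 in yolk sac negative cells.

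Wells with 7 or more of the markers, a limit chosen after the values were seen, held much of the receptor and fibrinogen counts. In E11.5 yolk sac negative cells these were 20 wells (5.28%), with 57.8% of the Cubn counts, 40.0% of Lrp2, 41.4% of Fgb and 69.2% of F2, but 15.0% of Dab2 and 8.04% of Pros1. Their Cubn level was 580 CPM against 32.3 CPM in the other wells, Fgb was 459 CPM against 49.5 CPM and Lrp2 260 CPM against 29.7 CPM. Dab2 was 251 CPM against 108 CPM, and Pros1 398 CPM against 347 CPM. The median depth was 5170 counts against 3785, so more markers were also found in deeper wells. The mesenchymal markers were as high there, at 9309 CPM against 8622 CPM, and the collagen gene Col1a1 was found with and without Fgb in nearly all wells of that pool.

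In E11.5 yolk sac positive cells 74 wells (20.7%) had 7 or more markers, and held 51.1% of the Cubn counts, 51.2% of Lrp2, 52.6% of Fgb, 52.6% of F2, 33.1% of Dab2 and 21.8% of Pros1. Cubn was at 389 CPM there and at 122 CPM in the other wells, Fgb at 396 CPM and 117 CPM, Lrp2 at 211 CPM and 66.0 CPM, Dab2 at 781 CPM and 517 CPM, and Pros1 at 346 CPM and 408 CPM. The Pros1 counts were thus divided about as the wells were. The median depth was 3611 counts against 2921. Endothelial markers summed to 1088 CPM in these wells and 1275 CPM in the others, so wells with many endoderm markers were not poor in endothelial ones. No well of the E9.5 pools had 7 markers.

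At equal depth, with wells thinned to 2000 counts and 5 markers taken as the limit, the same contrast was seen in yolk sac negative cells. In 31 such wells Cubn was at 306 CPM against 33.0 CPM, Lrp2 at 226 CPM against 30.0 CPM, Fgb at 274 CPM against 61.6 CPM, Dab2 at 290 CPM against 102 CPM and Pros1 at 484 CPM against 368 CPM. Cubn, Lrp2, Dab2 and Fgb were 2-fold or more higher there. The share of all genes 2-fold higher in such wells was not computed. In 149 yolk sac positive wells Cubn was at 285 CPM against 94.1 CPM and Fgb at 265 CPM against 96.8 CPM, while Lrp2 was at 104 CPM against 80.6 CPM, Dab2 at 423 CPM against 613 CPM and Pros1 at 409 CPM against 435 CPM.

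Without the wells of 7 or more markers, a setting added after the data were seen, the differences of Cubn and Fgb moved as follows. The log2 ratio of Cubn between the E11.5 negative pools was 2.14 in place of 3.28. For E11.5 over E9.5 in yolk sac negative cells, Cubn had 1.72 in place of 2.85 and Fgb 2.99 in place of 3.66. The ratio of Cubn between positive and negative yolk sac cells at E11.5 was 1.92 in place of 1.40. All 4 values had the same direction as with those wells and were past 2-fold.

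Dab2 was also set beside macrophage markers, since macrophages are known to make it. Macrophage markers summed to 1406 CPM in AGM positive and 936 CPM in yolk sac positive cells at E11.5, to 701 CPM in yolk sac positive cells at E9.5, and to between 36.8 and 115 CPM in the other 5 pools. In E11.5 yolk sac positive cells, 50 wells with 3 or more of 12 macrophage markers had Dab2 at 1499 CPM and the other 307 wells at 399 CPM. In E11.5 AGM positive cells, 50 such wells were at 918 CPM and the other 237 at 143 CPM. Dab2 was thus higher in macrophage-marker wells of both tissues at E11.5, although it was present in the other wells too, and the pool with most macrophage markers, AGM positive, had less Dab2 than yolk sac positive cells. The part of macrophages in the pool levels was not tested. In E9.5 yolk sac positive cells there was little between them, at 278 CPM in 44 wells and 270 CPM in 281. Endothelial markers did not divide the E11.5 yolk sac positive wells by Dab2, at 572 CPM with 3 or more of them and 590 CPM with fewer. Bulk values of a pool cannot tell fewer cells of a type from less RNA per cell.

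In E11.5 yolk sac positive cells, the receptors and Fgb were level or lower in wells with macrophage or endothelial markers. Cubn was at 190 CPM in wells with 3 or more macrophage markers and 188 CPM in the others, Lrp2 at 53.7 CPM (interval 26.8 to 96.1) and 111 CPM (92.0 to 134), and Fgb at 137 CPM and 196 CPM. In wells with 3 or more endothelial markers Cubn was at 178 CPM, Lrp2 at 82.9 CPM and Fgb at 133 CPM, against 195 CPM, 115 CPM and 221 CPM in the wells with fewer. The intervals of Fgb in the endothelial split did not overlap (103 to 170 and 188 to 258 CPM). Counts of these genes in VE-cadherin positive cells were thus found in wells with and without endothelial markers.

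Other genes of the pathways were taken from lists set with earlier results known, and are given as counts at 2-fold. Of 57 endocytosis genes, 48 were measurable between the E11.5 negative pools, of which 6 were higher in the yolk sac and 9 in the AGM (5.87% and 45.4% of all genes), with a median log2 ratio of -0.24 beside -0.90 for all genes. Between the positive pools at E11.5, 5 of 44 were higher in the yolk sac (4.90% of all genes) and none lower (9.92%), the 5 being Ehd3, Stab2, Pdzk1, Fcgrt and Lrpap1. The lysosomal protease gene Ctsb was higher in yolk sac negative cells at both stages (1.28 and 1.01). Higher in AGM negative cells at both stages were Sorl1, a sorting receptor of the same receptor family (-5.31 and -3.02), Numb, an adaptor with a Dab2-like domain (-2.95 and -1.72), and the Wnt co-receptor genes Lrp6 (-1.99 and -1.49) and Lrp5 (-1.33 and -1.73), with Hip1 (-3.12 and -1.60) and Rab11fip3 (-2.28 and -1.80). With the TMM factors 13 of the 48 were higher in the yolk sac and 2 in the AGM at E11.5 (13.6% and 14.0% of all genes). Of the genes named as higher in AGM negative cells, Sorl1 was then 2-fold apart at both stages (-4.18 and -2.17), while Numb, Hip1 and Rab11fip3 were so at E9.5 alone, and Lrp5 and Lrp6 at neither stage.

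Of 19 clotting factor genes 13 were in both tables, and 7 were measurable between the E11.5 negative pools. Fga, Fgg and the kininogen gene Kng1 were higher in the yolk sac and Vkorc1l1, a vitamin K reductase, lower, with a list median of 0.77 beside -0.90 for all genes. Over the stages, 5 of 7 were higher at E11.5 in yolk sac positive and 5 of 8 in yolk sac negative cells (5.01% and 29.4% of all genes), and F10 was lower in both (38.6% and 16.1% of all genes were lower). Of 22 genes of anticoagulants and fibrinolysis, 17 were in both tables and 7 were measurable between the E11.5 negative pools. Serpinf2 and S100a10 were among those higher in the yolk sac, and Serpine2 and Plat were lower. With the TMM factors Vkorc1l1 was within 2-fold (-0.20) and F13a1, for factor XIII, was also higher in the yolk sac, as were Anxa2 and Tfpi. Serpine2, a protease inhibitor (-2.03 and -2.67), and Plat, the tissue plasminogen activator (-4.68 and -2.65), were higher in AGM negative cells at both stages, but the E9.5 ratio of Serpine2 was within 2-fold with TMM (-0.90) and with size factors (-0.81).

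Among the receptors of thrombin and protein S, 4 of 8 were measurable between the negative pools. Gas6, the other ligand of the Tyro3, Axl and Mertk kinases, was higher in yolk sac negative cells at both stages (3.10 and 2.59), and Mertk was higher in AGM negative cells (-3.32 and -1.01). With the TMM factors Mertk was near equal at E11.5 (-0.16). Axl was found in AGM negative (21.9 CPM) and yolk sac negative cells (20.2 CPM) at E11.5 and was at 3.53 CPM and 3.26 CPM in the positive pools. Tyro3 had at most 6 counts in any pool. Ggcx, the carboxylase that matures F2 and Pros1, was between 1.81 and 26.5 CPM and highest in E11.5 AGM negative cells. Vkorc1 was not analysed here.

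Over the 8 pools, the genes most like each member were found by Pearson's r of log2(CPM + 1) among 8435 genes with 100 or more counts. Cubn was most like Fgb (r = 0.993), Apob (0.989), Apoa4, Spp2 and Apoa2. Fgb was most like Cubn, Apob (0.990), Fgg (0.988), Spp2 and Fga (0.980), and F2 most like Spink1 (0.971), Spp2, Fgb (0.954), Fgg and Apob. Lrp2 had lower values, led by Maob (0.959), Gstm1, Spink1, Fgg and Sdc4, and its r with Cubn was 0.779. Dab2 was most like Zcchc6 (0.993), COX1, Lgmn, Stx7 and Hmox1, and Pros1 most like Tcp11l2 (0.981), Nr3c1, Gpcpd1, Bcl2l1 and Evi5. The 8 points share the chip of each stage and differ in depth and haemoglobin load, so these values describe likeness of order only.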

How the data were processed

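Single-cell RNA was measured in sorted AGM and yolk sac cells of 2 stages, on 2 ICELL8 chips. The deposited tables hold raw counts per gene and well. Per the submitters' processing notes, the authors used FastQC, cutadapt and STAR with mm10 (GRCm38). Tool versions, the counting step, the annotation and any use of molecular identifiers are not given in the sources used here. Wells were placed in pools by the deposited State column, which is the only map of wells to pools.

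Wells with 500 or more genes were kept. Counts were summed per pool and divided by the pool total (CPM). Intervals are exact Poisson for levels, Clopper-Pearson for shares and conditional binomial for ratios, at 95%, and cover counting error only. A pool is 1 sample, so no test was run and no p-value is given. A ratio was measurable with 20 counts in the higher pool and called at 2-fold, and 3 counts was the limit for a pool with none. Doublets were excluded at the sort. Wells that Scrublet (in Scanpy 1.11.5) marked were kept, and left out as an alternative. For sharing, wells were thinned to 2000 counts, leaving out shallower ones.

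The members and lists were chosen with earlier results of these data known. Named were the 6 members and 13 partner genes. In each list, up to 6 genes per direction were named that lay 2-fold apart between the negative pools at both stages, and for each member the 5 most like genes. Alternatives were no gene filter, 1000 genes, a limit of 20% mitochondrial counts, totals without haemoglobin, mitochondrial genes and Gm42418, edgeR 4.0.16 TMM factors, DESeq2 1.42.0 size factors, equal weight per well, doublets or the top well left out, and other thinning. The scaling of the gene lists, the wells with 7 or more markers left out and the 20 draws were chosen after seeing the data. No count model was fitted with either package. The ratio and thinning steps were tested on simulated counts. Software was Python 3.11.15, NumPy 2.4.6, SciPy 1.17.1, pandas 2.3.3 and R 4.3.3. The result for 1 gene of the lists is not reported here.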

Additional observations from a re-analysis of the deposited data

Results flagged for a closer look

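Lrp2 differed in direction between the stages among VE-cadherin negative cells, with a log2 ratio of yolk sac over AGM of -1.39 at E9.5 and 2.19 at E11.5. As each pool was 1 sample, whether these values differ beyond chance was not tested. The E9.5 value of Lrp2 also depended on the scaling, and was within 2-fold with TMM and with size factors. Fgb had a log2 ratio of positive over negative yolk sac cells of -2.10 at E9.5 and 1.24 at E11.5, also not tested. Its E9.5 value rested on very few counts in positive cells. Pros1 had a log2 ratio of yolk sac over AGM among positive cells of 0.93 at E9.5 and -0.40 at E11.5, likewise not tested. In all 3 cases stage and chip cannot be told apart.

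Pros1 was at 7888 CPM in the E11.5 control wells with stem cell RNA, data that the comparisons of sorted cells do not use. This was above the level in the negative control wells of the same chip, 405 CPM from 7 counts.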

How the results depend on the processing

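Of 469 alternative values of the 47 measurable member ratios, 412 lay within the reported 95% interval and 57 outside it, and no ratio past 2-fold changed sign. The TMM factors and the size factors gave 15 each of those 57, and the totals without haemoglobin gave 12. Calls higher in positive over negative cells numbered 7, and 2 at a fold of 4. The shares of all genes so called at 2-fold were 7.61% in the AGM and 38.8% in the yolk sac at E9.5. At E11.5 they were 6.45% and 9.20%. Members 2-fold higher in wells with 5 or more endoderm markers numbered 4 in E11.5 yolk sac negative cells and 2 in positive cells. Without thinning, or with 3 markers as the limit, these were 2 and 1. The share of all genes higher in such wells was not computed, so these counts have no background to be set against. The share of E11.5 yolk sac positive Fgb wells with Cubn was 34.2% in 1 draw at 2000 counts, 17.3% at 1000 counts and 50.0% in wells with 1000 genes. These shares cover wells with Fgb only. The shares of wells lacking Fgb were computed at the same settings but are not given here, so whether the contrast moved is not shown. The cause of these moves was not tested. No paired analysis was possible because the labels carry no replicate numbers and each pool was 1 sample. No replicate could be left out. Depth limits F2, Amn and all E9.5 values of Cubn, Lrp2 and Fgb.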
